A study of Mus musculus with 12 samples.

Results

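The genes described here are 7 transcription factors of the C/EBP and ETS families: Cebpa, Cebpb, Cebpd, Cebpg, Elf3, Ets1 and Ets2. They were taken by their Ensembl gene IDs from count tables that list 57010 IDs, and each symbol matched 1 ID. The counts come from 12 mRNA libraries of primary mouse chondrocytes, the cells that build and maintain cartilage. All cells carry the genotype label wild type. The treatment labels give 4 Control libraries, 4 libraries labelled WT, from cells that received a wild-type plasmid, and 4 labelled SIRT5F101L mutant, from cells that received a plasmid for this mutant of SIRT5. SIRT5, found mainly in mitochondria, strips malonyl, succinyl and glutaryl groups from lysines, and the study asks how it bears on chondrocyte metabolism and osteoarthritis. The labels do not state what the Control cells received, nor the age, the number of animals or the plasmid promoter. Nothing states that the 4 libraries of a group came from separate cultures or animals, so the p-values measure the spread between these libraries, which may be technical. The WT and SIRT5F101L groups were both compared with the same 4 Control libraries.

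C/EBP proteins bind DNA as dimers through a basic region and a leucine zipper, and they pair with each other and with other zipper proteins such as CHOP and ATF4. C/EBPbeta and C/EBPdelta are known for the response to inflammatory cytokines, C/EBPalpha for differentiation of fat, liver and myeloid cells, and C/EBPgamma is a short family member that lacks a strong activation domain. ETS proteins bind a GGAA core through a winged-helix domain. ETS1 and ETS2 are phosphorylated by ERK and act on genes of matrix proteases, while ELF3 is an epithelial family member that cytokines induce in chondrocytes.

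The promoters of 3 members that moved in different directions are shown because they set these genes side by side at their start sites. They are RefSeq sequences on build GRCm38.p6, from 250 bases before to 50 bases after the start of the gene, printed along the gene's strand. Capitals mark matches to the motifs named in the next paragraph.
Cebpa promoter, chr7:35119043-35119342 (+ strand): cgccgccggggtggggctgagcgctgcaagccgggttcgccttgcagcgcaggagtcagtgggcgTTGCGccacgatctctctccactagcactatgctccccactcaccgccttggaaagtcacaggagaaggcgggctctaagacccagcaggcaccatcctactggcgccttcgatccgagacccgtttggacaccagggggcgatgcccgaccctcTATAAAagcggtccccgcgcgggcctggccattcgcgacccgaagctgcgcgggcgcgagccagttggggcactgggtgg
Cebpb promoter, chr2:167688665-167688964 (+ strand): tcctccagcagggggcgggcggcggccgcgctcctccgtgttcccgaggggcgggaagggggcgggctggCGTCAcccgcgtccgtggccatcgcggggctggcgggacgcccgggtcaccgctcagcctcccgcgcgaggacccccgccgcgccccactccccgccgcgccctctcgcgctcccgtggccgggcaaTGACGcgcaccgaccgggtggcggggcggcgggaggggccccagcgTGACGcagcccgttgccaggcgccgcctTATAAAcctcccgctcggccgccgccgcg
Ets2 promoter, chr16:95702157-95702456 (+ strand): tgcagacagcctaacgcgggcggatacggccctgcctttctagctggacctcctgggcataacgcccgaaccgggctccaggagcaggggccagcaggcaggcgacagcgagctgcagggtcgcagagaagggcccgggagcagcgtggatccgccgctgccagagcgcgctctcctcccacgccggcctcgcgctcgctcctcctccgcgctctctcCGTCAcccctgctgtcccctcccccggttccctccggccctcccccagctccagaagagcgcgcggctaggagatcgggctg

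A promoter was found for 5 of the 7 members. There was no entry for Cebpd and Ets1. The motifs searched were TTGCNNAA and TTGCG for C/EBP, CCGGAAG for ETS, TGACG for the CREB and ATF factors, TTCNNNGAA for STAT and, for NF-kB, a run of GGG, NNN and TTCC, each on both strands, and TATAAA on the gene's strand. TTGCG and TTGCNNAA can match the same bases. Positions count from the start of the gene, with negative values before it. In the Cebpa promoter TTGCG was found once, at -185, and TATAAA once, at -30. The Cebpb promoter held TGACG 3 times, at -180 on the opposite strand and at -53 and -7, and TATAAA at 22. The Ets2 promoter held TGACG once, at -32 on the opposite strand, and in the Cebpg promoter none of the 7 motifs was found. The Elf3 promoter, not printed here, held the NF-kB motif once, at -108 on the opposite strand, and none of the others. Of 32851 RefSeq promoters of this length, 17.4% held TTGCG, 20.8% TGACG, 8.32% TATAAA, 10.8% TTGCNNAA, 8.86% CCGGAAG, 8.30% TTCNNNGAA and 5.56% the NF-kB motif. The promoters of Cebpb, Ets2, Cebpg, Cebpa and Elf3 were 80.7%, 71.7%, 71.7%, 67.3% and 59.0% G or C, against a median of 52.7% over all of them. A match describes letters in the sequence and does not show that a factor binds there.

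Library totals were 15095357 to 24242139 counts, so that 1 count was worth 0.0413 to 0.0662 CPM, the count scaled to library size. Within groups the libraries differed by 2.55 to 8.92 times the sampling noise. One library, SIRT5F101L replicate 1, was unlike its group: along the second component of a principal component analysis (5.66% of the variance) it lay at 20.3 and the other 3 SIRT5F101L libraries at -23.5 to -17.0. The WT libraries lay at 12.5, 12.5 and 20.1 and, for WT replicate 1, at -1.07, so that SIRT5F101L replicate 1 lay beside the WT libraries and WT replicate 1 was the WT library nearest to the other SIRT5F101L libraries. The labels were kept as given, and whether they match these 2 libraries was not tested. The members' results are therefore also given without it, as are the list counts that change. The count of Sirt5 itself was between 1 and 19 in each library, and the gene was not called by edgeR (WT against Control: log2 fold change -0.86, adjusted p 0.143; SIRT5F101L against Control: 0.03, adjusted p 0.954), so it gives no check of the plasmid labels. The cartilage collagen gene Col2a1 was high in Control (6720 CPM). Because RNA was measured in bulk, fewer cells of a type and less RNA per cell cannot be told apart.

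Levels below are TMM-scaled CPM, tests are edgeR quasi-likelihood tests on the counts, and a gene is called where its Benjamini-Hochberg adjusted p over 14253 tested genes is under 0.05. Of the 7 members, 6 had counts high enough to be tested. Against Control, 3 rose (Cebpb, Cebpd and Ets1) and 3 fell (Cebpa, Cebpg and Ets2) in both plasmid groups, so that each family held members that went up and members that went down. All 6 tested members were called in each comparison, where 56.8% of all tested genes were called for WT and 60.7% for SIRT5F101L, so the number of called members has to be read against a high background. Called genes were about evenly split: 28.7% of all tested genes were higher and 28.1% lower in WT, and 30.0% and 30.7% in SIRT5F101L. A change of at least 2-fold was found for 3 of the 6 (Cebpa, Cebpd and Ets1) in both comparisons, against 16.7% of tested genes in WT and 17.5% in SIRT5F101L. The library ranges did not overlap with Control for any of the 6, as was so for 53.5% and 51.3% of all tested genes.

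Among the C/EBP genes, Cebpd changed most upwards. Its protein is the acute-phase family member induced by cytokines. Cebpd stood at 103, 102, 106 and 107 CPM in Control replicates 1 to 4, at 245, 265, 240 and 304 CPM in WT and at 304, 219, 234 and 222 CPM in SIRT5F101L. Every plasmid library lay above every Control library, and SIRT5F101L replicate 1 and WT replicate 4 were the highest. The mean rose from 104 ± 2.12 to 263 ± 29.1 CPM in WT (SD, n = 4), 2.53-fold (log2 fold change 1.34, standard error (SE) 0.09, edgeR adjusted p 1.62e-10). In SIRT5F101L it was 245 ± 40.1 CPM, 2.35-fold above Control (log2 1.23, SE 0.09, edgeR adjusted p 5.48e-10), and the log2 change was 1.11 without SIRT5F101L replicate 1.

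Cebpb, whose protein drives inflammatory and acute-phase genes together with C/EBPdelta, rose less. It stood at 40.0, 35.2, 43.1 and 37.1 CPM in Control, at 48.0, 62.5, 62.9 and 64.4 CPM in WT and at 76.9, 53.9, 51.3 and 49.1 CPM in SIRT5F101L. The lowest WT library (replicate 1) and the highest SIRT5F101L library (replicate 1) stood away from the other 3 of their groups, but both lay above all Control libraries. The mean rose from 38.9 ± 3.46 to 59.4 ± 7.69 CPM in WT, 1.53-fold (log2 0.61, SE 0.12, edgeR adjusted p 0.000262), and to 57.8 ± 12.9 CPM in SIRT5F101L, 1.49-fold (log2 0.57, SE 0.12, edgeR adjusted p 0.000452). Without SIRT5F101L replicate 1 the second log2 change was 0.40 (edgeR adjusted p 0.000134), and with the GC trend of each library as an offset it was 0.93 (edgeR adjusted p 9.75e-08). The Cebpb transcript is 67.2% G or C.

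Cebpa, known for its part in fat-cell and myeloid differentiation and in halting division, fell in both groups. It stood at 35.7, 35.9, 35.8 and 36.8 CPM in Control, at 11.9, 11, 12.4 and 13.0 CPM in WT and at 13.5, 10.3, 12 and 10.9 CPM in SIRT5F101L. The Control libraries lay close together and far above all 8 others. The mean of 36.1 ± 0.481 CPM fell to 12.1 ± 0.83 CPM in WT, 2.98-fold lower (log2 -1.57, SE 0.09, edgeR adjusted p 7.47e-12), and to 11.7 ± 1.43 CPM in SIRT5F101L, 3.08-fold lower (log2 -1.62, SE 0.09, edgeR adjusted p 4.33e-12). Without SIRT5F101L replicate 1 the latter was -1.70.

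Cebpg, whose protein mostly acts as a dimer partner, fell least of the members. It stood at 52.2, 54.1, 56.8 and 55.2 CPM in Control, at 38.7, 42.3, 38.5 and 43.7 CPM in WT and at 44.3, 38.0, 38.9 and 40.5 CPM in SIRT5F101L. The groups did not overlap with Control, though the gap between the highest plasmid library and the lowest Control library was smaller than for Cebpa. The mean of 54.6 ± 1.91 CPM became 40.8 ± 2.59 CPM in WT, 1.34-fold lower (log2 -0.42, SE 0.07, edgeR adjusted p 3.55e-05), and 40.4 ± 2.80 CPM in SIRT5F101L, 1.35-fold lower (log2 -0.43, SE 0.07, edgeR adjusted p 2.29e-05). Without SIRT5F101L replicate 1 the latter was -0.48. In the RefSeq order of protein-coding genes Cebpa and Cebpg lie on chromosome 7 with only the predicted gene Gm45095 between them, and both fell. Lrp3, the second gene past Cebpa on the side away from Cebpg, had log2 values of -2.22 and -2.19 and Pepd, next to Cebpg, 0.07 and 0.06 (edgeR adjusted p 3e-10 and 3.05e-10 for Lrp3, 0.36 and 0.426 for Pepd).

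Of the ETS members, Ets1 rose. Its protein is a MAPK-responsive activator of collagenase and stromelysin genes. Ets1 stood at 23.2, 24, 23.6 and 22.8 CPM in Control, at 73.1, 66.5, 67.2 and 63.0 CPM in WT and at 65.9, 73.5, 73.0 and 74.3 CPM in SIRT5F101L. All 8 plasmid libraries stood far above Control, with SIRT5F101L replicate 1 the lowest of its group. The mean rose from 23.4 ± 0.517 to 67.4 ± 4.19 CPM in WT, 2.88-fold (log2 1.53, SE 0.07, edgeR adjusted p 1.39e-13), and to 71.7 ± 3.88 CPM in SIRT5F101L, 3.06-fold (log2 1.61, SE 0.07, edgeR adjusted p 5.17e-14; 1.65 without SIRT5F101L replicate 1).

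Ets2, the nearest relative of Ets1, fell. It stood at 69.5, 65.2, 66.2 and 62.6 CPM in Control, at 44.3, 40.1, 44.9 and 40.0 CPM in WT and at 41.5, 39.8, 48.5 and 44.7 CPM in SIRT5F101L. No plasmid library reached the lowest Control library. The mean of 65.9 ± 2.87 CPM fell to 42.3 ± 2.65 CPM in WT, 1.56-fold lower (log2 -0.64, SE 0.07, edgeR adjusted p 2.79e-07), and to 43.6 ± 3.79 CPM in SIRT5F101L, 1.51-fold lower (log2 -0.59, SE 0.07, edgeR adjusted p 7.01e-07; -0.56 without SIRT5F101L replicate 1). In the RefSeq order of protein-coding genes Ets1 is next to another ETS gene, Fli1, and Ets2 is next to Erg. Fli1 had log2 changes of 0.30 and 0.42 in WT and SIRT5F101L (edgeR adjusted p 0.126 and 0.0308), and Erg 0.02 and 0.08 (edgeR adjusted p 0.852 and 0.31). Elf3 is listed at 0 in all 12 libraries and was not tested. B2m and Myd88, genes that nearly every cell uses, and Ccl2 are also listed at 0 in all 12, so the 0 of Elf3 does not give its level. The same holds for each gene below that is listed at 0 in all 12 libraries.

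**Figure D1:**
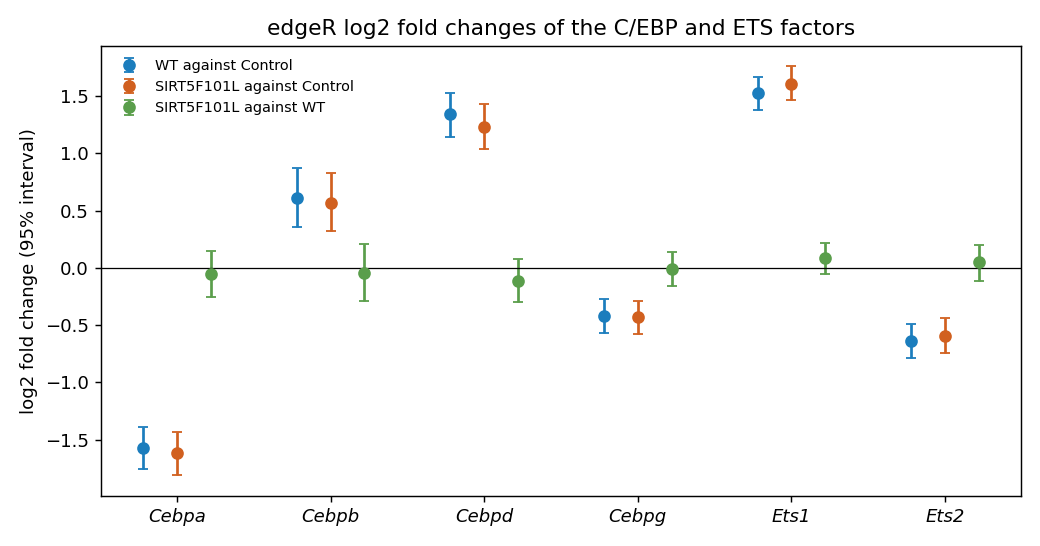
Log2 fold change of each tested member in the 3 comparisons by edgeR, with the 95% interval. The intervals of both plasmid groups against Control lie away from 0 for all 6 members, and those of SIRT5F101L against WT include 0 for all 6. The point estimates in SIRT5F101L against Control run from -1.62 for Cebpa to 1.61 for Ets1.

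In GENCODE M21 (build GRCm38) Cebpa and Cebpg lie on chromosome 7, Cebpb on chromosome 2, Cebpd and Ets2 on chromosome 16, Ets1 on chromosome 9 and Elf3 on chromosome 1. Cebpa, Cebpb and Cebpd have 1 exon, while Ets1 and Ets2 have 8 and 10 in their longest transcripts. Some members share exonic bases with a gene on the opposite strand in that annotation, and the strand setting of the counting is not given in the sources used here. The single exon of Cebpb overlaps Tmem189 over 20.7% of its length, and that of Cebpd overlaps Spidr over 15%. Tmem189 was at 2.15 CPM in Control, 1.45 in WT and 1.49 in SIRT5F101L, and was not called (edgeR adjusted p 0.0902 and 0.118). Spidr was at 24.5, 42.0 and 48.6 CPM and rose (log2 0.78 and 0.99, edgeR adjusted p 1.37e-07 and 3.37e-09). How reads in the shared bases were divided between Spidr and Cebpd was not tested. The exons of Ets1 and Ets2 share no base with another gene, and those of Cebpa and Cebpg share 1.93% and 1.37%.

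Levels of different members were set side by side only as CPM per kilobase of exon. The marker sums further below add plain CPM, without regard to length. In Control, Cebpd and Cebpb led the C/EBP genes at 27.8 ± 0.565 and 25.8 ± 2.30 CPM per kb, and their library ranges overlapped. Cebpa followed at 13.7 ± 0.182 and Cebpg at 9.71 ± 0.34 CPM per kb. In WT the order was Cebpd (70.3 ± 7.78), Cebpb (39.5 ± 5.11), Cebpg (7.26 ± 0.46) and Cebpa (4.59 ± 0.315 CPM per kb), and in SIRT5F101L it was 65.3 ± 10.7, 38.4 ± 8.56, 7.19 ± 0.497 and 4.43 ± 0.543 CPM per kb in the same order. Cebpa was ahead of Cebpg in Control and behind it in both plasmid groups. Summed over the 4 genes, the level was 77.1 ± 2.68 CPM per kb in Control, 122 ± 11.8 in WT and 115 ± 20.1 in SIRT5F101L, where the libraries ran from 103 to 145 with replicate 1 the highest.

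The make-up of that sum moved towards Cebpd. Its share was 36.1% in Control (library range 35.0 to 37.0%), 57.8% in WT (54.5 to 60.2%) and 56.7% in SIRT5F101L (55.7 to 57.8%). The share of Cebpb changed little, at 33.5%, 32.4% and 33.1%. That of Cebpa went from 17.8% (16.9 to 18.4%) to 3.79% (3.37 to 4.17%) and 3.86% (3.53 to 4.22%), and that of Cebpg from 12.6% to 5.98% and 6.31%. Written as a ratio per length, Cebpd was 2 to 2.08 times Cebpa in the Control libraries, 13.6 to 16.9 times in WT and 13.7 to 15.8 times in SIRT5F101L. The ratio of Cebpb to Cebpa went from 1.72 to 2.11 in Control to 7.04 to 9.92 in WT and 7.49 to 9.96 in SIRT5F101L.

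The pair of ETS genes moved in opposite directions around a sum that changed less. Ets2 was at 11.4 ± 0.496 CPM per kb in Control, 7.32 ± 0.458 in WT and 7.55 ± 0.656 in SIRT5F101L, while Ets1 went from 2.76 ± 0.061 to 7.96 ± 0.495 and 8.46 ± 0.458. Their sum was 14.2 ± 0.509, 15.3 ± 0.879 and 16.0 ± 0.915 CPM per kb. The ratio of Ets1 to Ets2 went from 0.227 to 0.251 in the Control libraries to 1.02 to 1.13 in WT and 1.03 to 1.26 in SIRT5F101L. Ets2 was thus the higher of them in every Control library and Ets1 in every plasmid library, also when the longest transcript was used for the length (0.255 to 0.282 in Control, 1.15 to 1.27 in WT and 1.15 to 1.41 in SIRT5F101L).

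**Figure D2:**
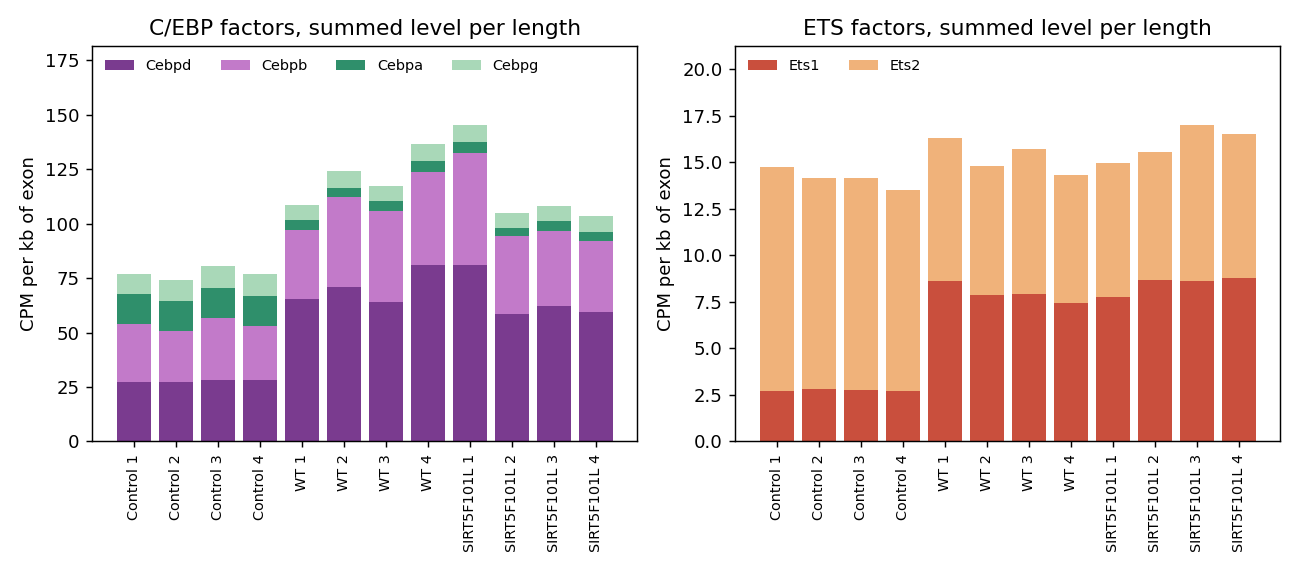
CPM per kilobase of exon of the C/EBP members (left) and of Ets1 and Ets2 (right), stacked per library. Cebpd takes 35.0 to 37.0% of the C/EBP bar in Control and 54.5 to 60.2% in WT, and Ets1 passes Ets2 in all 8 plasmid libraries.

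To ask whether the mutant differs from the wild-type plasmid, SIRT5F101L was compared with WT. None of the 6 tested members was called by edgeR, against 0.0421% of tested genes (6 genes; 1701 genes had an unadjusted p under 0.05, and DESeq2 called 38), and the library ranges of all 6 overlapped, as they did for all but 4.02% of tested genes. The log2 differences were -0.05 for Cebpa (95% interval -0.25 to 0.15, edgeR adjusted p 0.864), -0.04 for Cebpb (-0.29 to 0.21, 0.92), -0.11 for Cebpd (-0.30 to 0.08, 0.631) and -0.01 for Cebpg (-0.16 to 0.14, 0.961). They were 0.09 for Ets1 (-0.05 to 0.22, edgeR adjusted p 0.575) and 0.05 for Ets2 (-0.11 to 0.20, 0.824). The intervals reach at most 0.30 in size on the log2 scale, and a p above the threshold does not show that the plasmids act alike. Without SIRT5F101L replicate 1, the library that lay beside the WT libraries, Cebpd was called lower in SIRT5F101L (log2 -0.23, edgeR adjusted p 0.0165), and 2213 of 14528 tested genes were called (15.2%). Without it Cebpb stood at -0.21 (edgeR adjusted p 0.0999), Cebpa at -0.12 (0.455), Cebpg at -0.06 (0.654), Ets1 at 0.13 (0.19) and Ets2 at 0.07 (0.573).

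The spread of the members over the 8 plasmid libraries was set beside a property of each library, the slope over all tested genes of log2 CPM against the log2 length of the transcript. SIRT5F101L replicate 1 had a slope of 0.586, against 0.726 to 0.748 in the other 3 SIRT5F101L libraries, and WT replicate 1 had 0.697, against 0.609 to 0.647 in the other 3 WT libraries. The Control libraries had 0.579 to 0.601. Cebpb was highest in the plasmid library with the lowest slope (76.9 CPM in SIRT5F101L replicate 1) and lowest in WT in the library with the highest slope of that group (48.0 CPM in WT replicate 1). Cebpd was 304 CPM in the plasmid libraries with the lowest and the second-lowest slopes (SIRT5F101L replicate 1 and WT replicate 4). With each library's length trend as an offset, the difference between the plasmids was 0.01 for Cebpb (edgeR adjusted p 0.972). Without the offset it was -0.04 (edgeR adjusted p 0.92). The rise of Cebpb against Control was 0.68 in WT and 0.70 in SIRT5F101L with the offset, and 0.61 and 0.57 without it. For Cebpd the difference between the plasmids was -0.12 with this offset (edgeR adjusted p 0.624) and -0.11 without it. The slope of log2 CPM against the GC percentage of the transcript set the same libraries apart. It was 0.00225 in SIRT5F101L replicate 1, against -0.0172 to -0.00794 in the other 3 SIRT5F101L libraries. In WT replicate 1 it was -0.00309, against 6.53e-05 to 0.00427 in the other 3 WT libraries. The parts of length and GC content in the spread of the members were not tested.

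**Figure D3:**
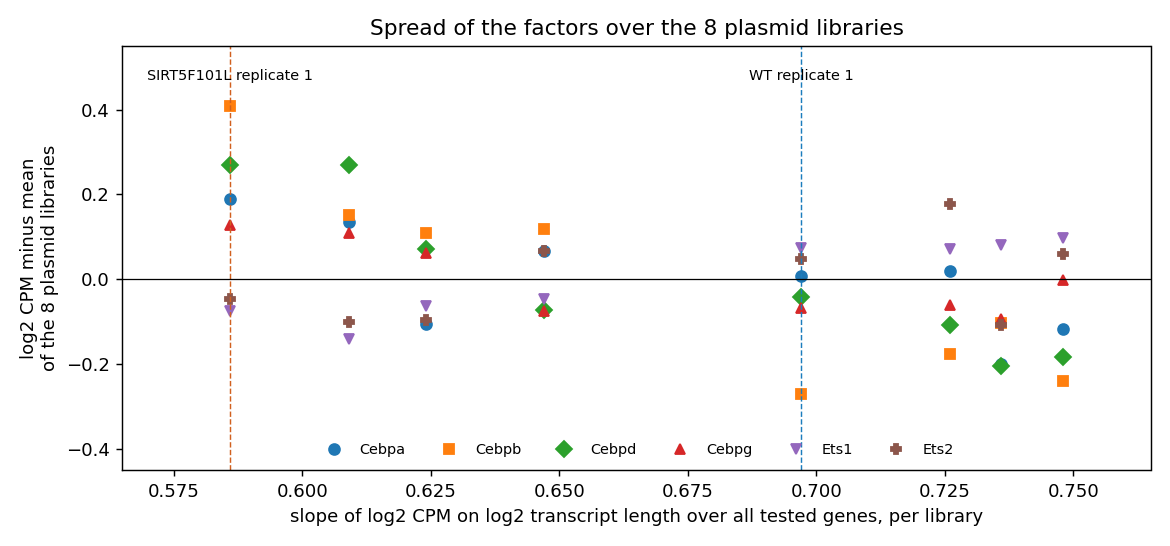
Log2 CPM of each member minus its mean over the 8 plasmid libraries, against the length slope of the library. Points of Cebpb lie highest at SIRT5F101L replicate 1 (slope 0.586) and lowest at WT replicate 1 (slope 0.697), and the points of Ets1 lie below 0 in the 4 libraries with the lowest slopes.

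The members' profiles over the 12 libraries were compared by the root mean square difference of centred log2 CPM. Among the members, Cebpg and Ets2 were nearest to each other (0.16), then Cebpd and Ets1 (0.25) and Cebpb and Cebpd (0.35), and Cebpa and Ets1 lay farthest apart (1.5). Among 9790 tested genes, the 3 nearest to Cebpa were Marcks, Mxra7 and Palmd (0.10 each), and those nearest to Cebpd were Crabp2 (0.08), Tpd52 (0.09) and Prdx1 (0.10). Cebpb was nearest to Ly6a (0.09), H2-T22 (0.10) and Sqor (0.11), and Cebpg to Anxa4 (0.04), Cdc123 (0.05) and Fibp (0.06). Ets1 was nearest to Nfatc1, Man1a and Epb41l3 (0.06 each) and Ets2 to Usp22, Sept8 and Xpot (0.07 each). These are descriptions over libraries of 3 groups.

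Related genes were taken from lists of the families and of the genes that act on the C/EBP and ETS factors or are known to respond to them. The medians below are of log2 fold changes, beside -0.01 in WT and -0.02 in SIRT5F101L over all tested genes. The counts stand beside 56.8% of all tested genes called in WT and 60.7% in SIRT5F101L, in near equal shares higher and lower. Of the other C/EBP genes, Ddit3 (CHOP), a dimer partner of the stress response, fell from 123 to 51.8 CPM in both groups (log2 -1.25 and -1.24), and Cebpe is listed at 0. Of 10 zipper partners, 9 were tested (Ddit3 among them). In both comparisons 3 rose and 6 fell, with medians of -0.99 and -1.09. Dbp (log2 -2.45 and -2.73) and Atf5 (-2.22 and -2.41) fell most, and Hlf rose (3.13 and 3.12) from 1 to 10 counts per Control library.

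Of 23 other ETS genes, 15 were tested and Elf4 and Elk1 are listed at 0, which does not give their levels. In both comparisons 8 rose and 2 fell, with medians of 0.44 and 0.42. Etv1 and Etv4, of the PEA3 group that ERK activates, rose most, Etv1 from 3.14 to 38.0 and 44.8 CPM (log2 3.59 and 3.82) and Etv4 from 2.57 to 14 and 11.9 CPM (2.44 and 2.21). Spi1, which encodes the myeloid factor PU.1, fell from 3.88 to 1.20 and 1.32 CPM (-1.66 and -1.57). Of 8 feedback genes of the ERK pathway, which phosphorylates ETS1 and ETS2, 7 rose and 1 fell, with medians of 0.98 and 1.03. The phosphatases Dusp4 (2.44 in both) and Dusp6 (1.99 and 2.01) and the inhibitor Spry4 (1.75 and 1.78) rose most.

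Of 18 cytokines, receptors and signal factors upstream of these families, 13 were tested. In WT 8 rose and 3 fell, and in SIRT5F101L 9 rose and 3 fell, with medians of 0.43 and 0.42. Il6, a cytokine gene that is itself a C/EBP target, went from 1.67 to 75.5 and 94.2 CPM (log2 5.50 and 5.82). Lif, a cytokine of the same receptor family, changed by 3.95 and 4.23, and Nfkbiz, an NF-kB cofactor, by 2.65 and 2.81. The 3 that fell were the receptor genes Lifr (-1.13 and -0.83), Il6st (-0.72 and -0.59) and Il1r1 (-0.65 and -0.43). The receptor genes Il6ra (1.11 and 1.24) and Osmr (0.60 and 0.72) rose. Of 9 kinases and adaptors that act on the factors' proteins, 4 rose in both comparisons, and 3 fell in WT and 4 in SIRT5F101L (medians -0.15 and -0.01). The Tribbles genes, whose proteins lead C/EBPalpha to degradation or bind ATF4, split: Trib3 fell (-2.32 and -2.31), and Trib2 (1.15 and 1.12) and Trib1 (0.88 and 1.03) rose.

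Of 20 inflammatory genes known as C/EBP targets, 15 were tested and 14 rose in both comparisons, with medians of 4.45 and 4.62. The other gene, Orm2, was not called and had log2 values of -1.61 and -1.37 (edgeR adjusted p 0.0509 and 0.0793). Without SIRT5F101L replicate 1, 16 were tested, 15 rose in both comparisons, and Orm2 was called lower (log2 -1.61 and -1.56, edgeR adjusted p 0.0293 and 0.0487). For Saa1, which was at 0 in all Control libraries, the rise was at least 6.85-fold in WT and 6.66-fold in SIRT5F101L, taking 3 counts per Control library as the floor, and with Saa1 at that bound the medians were 3.69 and 3.91. The acute-phase gene Saa3 (log2 7.95 and 8.02) and the iron carrier gene Lcn2 (6.16 and 6.35) led, and Nos2, which makes nitric oxide, rose by 6.07 and 6.77 from 0 to 13 counts per Control library. Of 14 genes of matrix proteases and their control, 12 were tested. In both comparisons 7 rose and 4 fell, with medians of 0.64 and 0.53. The stromelysin genes Mmp3 (6.55 and 6.85) and Mmp10 (4.73 and 4.80, from 1 to 11 counts per Control library) rose most, and the collagenase gene Mmp13 went from 86.4 to 509 and 612 CPM (2.56 and 2.82). The 4 that fell were the aggrecanase genes Adamts4 (-1.53 and -1.37) and Adamts5 (-0.45 and -0.27), the gelatinase gene Mmp2 (-1.17 and -0.96) and the membrane protease gene Mmp14 (-0.92 and -1). Timp1 is listed at 0, which does not give its level.

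Of 12 genes of fat cells that C/EBPalpha is known to act on, 5 were tested. In both comparisons 2 rose and 2 fell (medians 0.16 and 0.14). Pparg, the master regulator of fat cells, fell from 18.6 to 4.60 and 4.70 CPM (log2 -2.01 and -1.98) and Lpl, a lipase, from 191 to 55.7 and 65.0 CPM (-1.78 and -1.55), while Scd1, a fatty acid desaturase, rose (0.76 and 0.84). Of 12 cartilage genes, 11 were tested. In WT 3 rose and 7 fell, and in SIRT5F101L 2 rose and 7 fell (medians -0.44 and -0.34). The matrix genes Matn3 (-3.53 and -4.07), Comp (-3.26 and -3.44), Col9a1 (-3.25 and -3.80) and Col2a1 (-2.01 and -2.36) fell. Other matrix genes did not: Acan, which encodes aggrecan, rose in WT (0.47) and was not called in SIRT5F101L (0.10), and the link protein gene Hapln1 rose in both (0.25 and 0.18). Sox5, which encodes a factor that acts with SOX9, rose as well (0.72 and 1.09), while Sox9 itself (-0.20 and -0.34) and Sox6 (-0.44 and -0.33) fell. Against Control, the fit without SIRT5F101L replicate 1 called 60.2% of all tested genes in WT and 63.2% in SIRT5F101L. In SIRT5F101L the counts then became 9 higher and 2 lower of 15 other ETS genes, 9 and 5 of 14 upstream genes, 1 and 2 of 5 fat-cell genes and 3 and 7 of 11 cartilage genes. In WT they became 8 and 4 of 14 upstream genes and 4 and 4 of 9 kinases and adaptors. Between the plasmids, 1 cartilage gene, Col11a2, was called (log2 -0.63, edgeR adjusted p 0.0339, named after its value was seen), and no other gene of these lists. Without SIRT5F101L replicate 1, where 15.2% of all tested genes were called between the plasmids, the numbers were 4 of 15 tested other ETS genes, 2 of 9 zipper partners, 8 of 14 upstream genes, 1 of 9 kinases and adaptors and 0 of 8 ERK feedback genes. They were 2 of 16 inflammatory genes, 5 of 12 protease genes, 1 of 5 fat-cell genes and 7 of 11 cartilage genes.

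**Figure D4:**
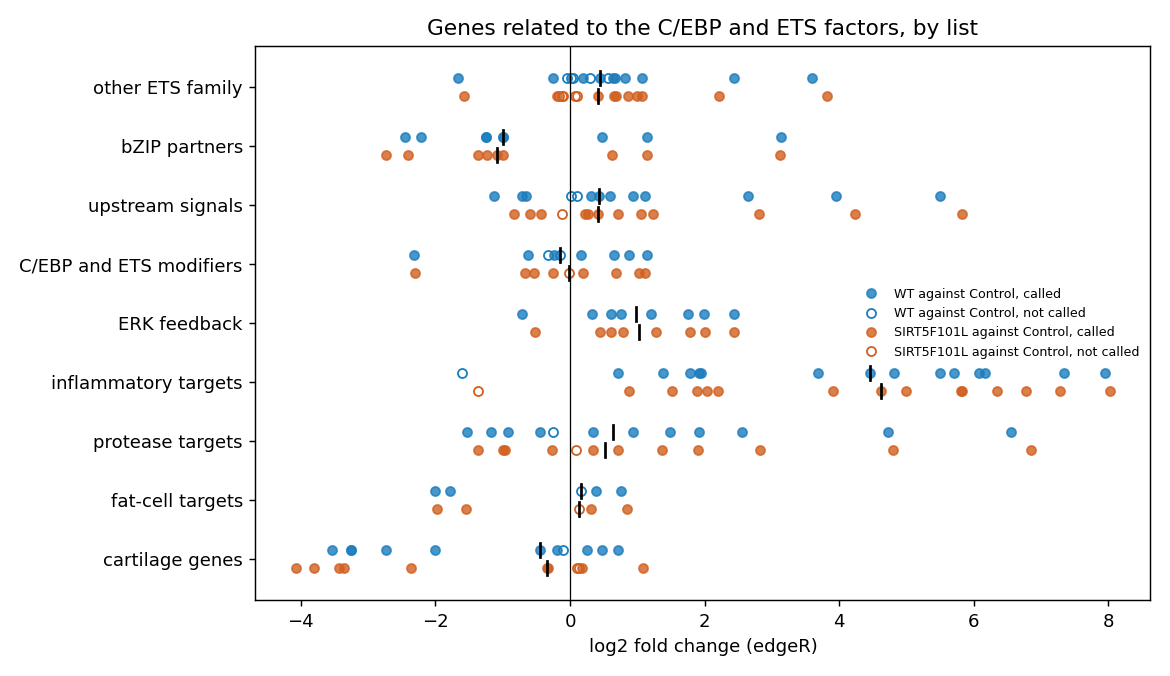
Log2 fold change of each tested gene of the related lists in WT (blue) and SIRT5F101L (orange) against Control, filled where called, with the list median as a bar. The inflammatory targets lie highest, with medians of 4.45 and 4.62 (3.69 and 3.91 with Saa1 at its bound), and the zipper partners have medians of -0.99 and -1.09.

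Markers of macrophages were lower in both plasmid groups, the few tested epithelial markers had higher levels, those of fibroblasts were mixed, and no endothelial marker was called. Summed levels of 10 macrophage markers were 190 to 226 CPM in Control, 88.2 to 103 in WT and 88.4 to 115 in SIRT5F101L. Most of each sum was Lyz2 (125, 60.5 and 61.1 CPM, log2 -1.05 and -1.03). All 9 tested markers fell in both comparisons, with medians of -2.03 and -1.84, and Itgam is listed at 0. Cebpa and Spi1 are expressed in myeloid cells as well. Summed levels of 6 fat-cell markers were 0.71 to 1.98 CPM in Control, 0.0987 to 0.577 in WT and 0.17 to 0.845 in SIRT5F101L, and none was tested. Adipoq was at 0.423 CPM in Control and at 0 in all WT libraries. The part of these cells in the fall of Cebpa and Pparg was not tested.

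Summed levels of 10 chondrocyte markers were 6410 to 8010 CPM in Control, 2050 to 2180 in WT and 1600 to 1820 in SIRT5F101L. Most of each sum was Col2a1 (6720, 1660 and 1310 CPM). Of these markers, Col2a1, Acan, Sox9, Col9a1, Col11a2, Hapln1 and Matn3 are also among the cartilage genes above. In both comparisons 8 fell, while Acan rose in WT and Hapln1 in both. Between the plasmids 1 of the 10 was called, Col11a2. The number was 4, all lower in SIRT5F101L, without SIRT5F101L replicate 1, 2 without Control replicate 2 and 0 without any other single library. For 7 fibroblast and synovial markers the sums were 1310 to 1580, 1700 to 1960 and 1880 to 2110 CPM, and of 6 tested 3 rose and 3 fell. Most of each sum was Prg4, which encodes lubricin (1170, 1550 and 1700 CPM, log2 0.41 and 0.54), while Pdpn rose (1.75 and 1.87) and Thy1 fell (-1.22 and -1.21). For 9 epithelial markers the sums were 5.75 to 8.09, 22.1 to 28.0 and 17.7 to 24.4 CPM, nearly all Krt19 (6.41, 22 and 19.2 CPM). Of 3 tested, 2 rose in WT (Cdh1 had a log2 value of 0.86 and was not called) and 3 in SIRT5F101L (2 without SIRT5F101L replicate 1), and Krt8 is listed at 0 in all 12 libraries. For 7 endothelial markers, which include the ETS gene Erg, the sums were 48.6 to 54.6, 50.4 to 52.0 and 50.2 to 55.9 CPM, mostly Erg (46.8, 47.3 and 49.4 CPM). Of 5 tested none was called by edgeR, and of 6 tested without SIRT5F101L replicate 1 none was called either. At an unadjusted p under 0.05 there was 1, Pecam1 in SIRT5F101L (0.044), and 0 in WT. The part of these cells in the changes of Ets1, Cebpb and Cebpd was not tested.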

How the data were processed

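The authors deposited whole-number counts per Ensembl gene ID for each library. Per the submitters' processing notes, the tools were FastQC 0.11.9, HISAT2 2.2.1, HTSeq 2.0.2 and DESeq2 1.38.3 and the build GRCm39 (mm39). The annotation release and strand setting are not given in the sources used here. Per the labels' protocols, mRNA was selected by its poly(A) tail and sequenced as paired ends.

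The counts were tested in R 4.3.3 with edgeR 4.0.16 (TMM scaling, its expression filter by group, 1 quasi-likelihood fit of 12 libraries with 9 residual degrees of freedom). All tests were 2-sided, with Benjamini-Hochberg adjustment over 14253 genes and a threshold of 0.05. IDs with no symbol held 0.377 to 0.821% of the counts and stayed in. All IDs on chromosomes X (2414), Y (1547) and M (37) are listed at 0, so the 0 of a gene there does not give its level. Lengths, GC content and overlaps came from GENCODE M21 (GRCm38) with bedtools 2.31.1. Gene neighbours, among protein-coding genes only, and promoters came from RefSeq (GRCm38.p6). Depth limits low counts: 1 count is at most 0.0662 CPM, and a floor of 3 counts covers counting error only.

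The members and all gene lists were chosen with earlier results of these data known. The named genes are the 7 members, Sirt5, Mmp13 and Col2a1, from each list the 3 called genes with the largest change in WT and at least 1 CPM on average, and the 3 nearest profiles of each member among genes that average 5 CPM or more. The 3 markers of each marker list with the highest mean CPM were chosen as well. Of these, Csf1r, Cd68, Cfd, Plin1, Krt18 and Tek are given no values above. Neighbours, overlapping genes, genes listed at 0, Saa1, Orm2, Col11a2, Hapln1, Sox5 and the 4 proteases that fell were named after their values were seen. So were Sox6 and the receptor genes Lifr, Il6st, Il1r1, Il6ra and Osmr. The alternatives were RLE and upper-quartile scaling, 2 other filters, a robust prior, fits of 8 libraries, DESeq2 1.42.0, length and GC trends as offsets (loess span 0.5), and leaving out each library.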

Additional observations from a re-analysis of the deposited data

Results flagged for a closer look

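In 3 of the 18 sets of 4 libraries (6 tested members in 3 groups) 1 library stood away from the others, its gap to the nearest, as a share of the range of the group, being over the 95% critical value of Dixon's test. About 0.9 such sets arise by chance. Cebpb was at 48.0 CPM in WT replicate 1, below the other WT libraries at 62.5 to 64.4 CPM (ratio 0.883). Cebpb was at 76.9 CPM in SIRT5F101L replicate 1, above the others at 49.1 to 53.9 CPM (ratio 0.83). Ets1 was at 65.9 CPM in SIRT5F101L replicate 1, below the others at 73.0 to 74.3 CPM (ratio 0.848).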

How the results depend on the processing

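The 12 changes of the 6 tested members against Control kept their direction and stayed under the threshold in all 252 values from 21 alternatives each. Their log2 changes ran in WT from -1.62 to -1.44 for Cebpa, 0.56 to 0.83 for Cebpb, 1.26 to 1.38 for Cebpd, -0.52 to -0.39 for Cebpg, 1.44 to 1.56 for Ets1 and -0.69 to -0.61 for Ets2. In SIRT5F101L the widest range was that of Cebpb, 0.40 to 0.93.

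Between SIRT5F101L and WT, the count of 6 genes called became 354 with no filter beyond 1 count, 20 with the length offset, 38 with DESeq2, 2 with the robust prior, 2 with only the 8 libraries compared and 0 with the GC offset (1310 at an unadjusted p under 0.05). Leaving out 1 library gave 0 to 2213, with 2213 without SIRT5F101L replicate 1, 3 without Control replicate 2 and 0 without any other (945 to 2191 genes at an unadjusted p under 0.05). Of the genes called, 66.7% were higher, against 33.1% with no filter, 70.0% with the length offset, 57.9% with DESeq2, 50% with only the 8 libraries compared or with a filter on a mean of 1 CPM, 0% with the robust prior and 43.7% without SIRT5F101L replicate 1. For members, differences near 0 changed sign: Cebpa was 0.06 with the GC offset, and Cebpb 0.01 with the length offset and 0.09 with the GC offset. With 1 library left out, the ranges were -0.12 to 0 for Cebpa, -0.21 to 0.03 for Cebpb, -0.23 to -0.03 for Cebpd, -0.06 to 0.02 for Cebpg and -0.01 to 0.09 for Ets2. Cebpd passed the threshold only without SIRT5F101L replicate 1 (-0.23, edgeR adjusted p 0.0165; highest over the alternatives 0.935). The causes were not tested. No paired analysis was possible because the labels give no replicate number, and the numbers used here only name the libraries in accession order.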
